A study of Mus musculus with 14 samples.

Results

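The transcriptional change that accompanied injury in mouse hind limb muscle was compared between wild-type (WT) mice and mice lacking Myf6 (KO). Of the 14 samples of the series, 12 are RNA-seq libraries of total muscle RNA and all 12 entered this comparison. They fall into 4 groups of 3 libraries: WT uninjured, WT injured, KO uninjured and KO injured. Each library carries a number in its description, and each number occurs once among the uninjured and once among the injured libraries, so the 12 libraries form 6 pairs, 3 WT and 3 KO. The number was taken as that of an animal, which the labels do not say in words, and the p-values measure the spread between these pairs. The WT and KO animals are called 1, 2 and 3 in the order of the replicate numbers in the titles. The labels give no kind or time of injury, no muscle within the hind limb, no strain, sex or age of the mice, and no description of the Myf6 allele. For each gene the change of an animal was its injured minus its uninjured value of log2(RPM + 1), where RPM is reads scaled to the library total, and the quantity compared was the mean KO change minus the mean WT change, called the difference below. With the pseudocount of 1 this scale understates the change of genes at low levels.

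Myf6, also called MRF4, is a muscle transcription factor of the basic helix-loop-helix class that binds E-box sequences and is made mainly by differentiated fibres. After injury, neutrophils and macrophages enter muscle, satellite cells divide and fuse, and new fibres pass through a stage in which they make developmental myosins such as Myh3 and Myh8. Slow and fast fibres build the same contractile machine from different isoforms of myosin, troponin, tropomyosin and the calcium pump, so the ratio of their transcripts follows the fibre make-up of a sample.

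The deleted gene was low in every KO library. Myf6 was at 46.2, 25.0 and 111 RPM in the uninjured and 47.9, 121 and 72.5 RPM in the injured WT libraries of animals 1, 2 and 3. In the KO it was at 1.86, 3.46 and 2.27 RPM uninjured and 3.32, 2.88 and 3.02 RPM injured, so the KO libraries all lay under the WT libraries. Its difference was -0.33 ± 0.64 (SE; limma, unadjusted p = 0.621). Without WT animal 2, in which Myf6 was 2.23 log2 units higher after injury, the difference was 0.51.

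2 animals stood apart. The uninjured library of WT animal 2 was the shallowest, with 1880087 reads on genes, so that 3 reads in it are worth 1.60 RPM, while the other 11 libraries held 12704445 to 49392472 reads. In KO animal 2 the median gene was 0.65 log2 units higher after injury, against -0.02 to 0.21 in the other 5 animals, and 36.9% of genes changed by more than 1 log2 unit, against 17.2% in WT animal 2 and 0.270% to 6.04% in the remaining 4. The uninjured library of KO animal 2 had a TMM factor of 0.67, a scaling factor that departs from 1 where a few abundant genes hold an unusual share of the reads, and the other 11 libraries had 0.88 to 1.12.

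**Figure D1:**
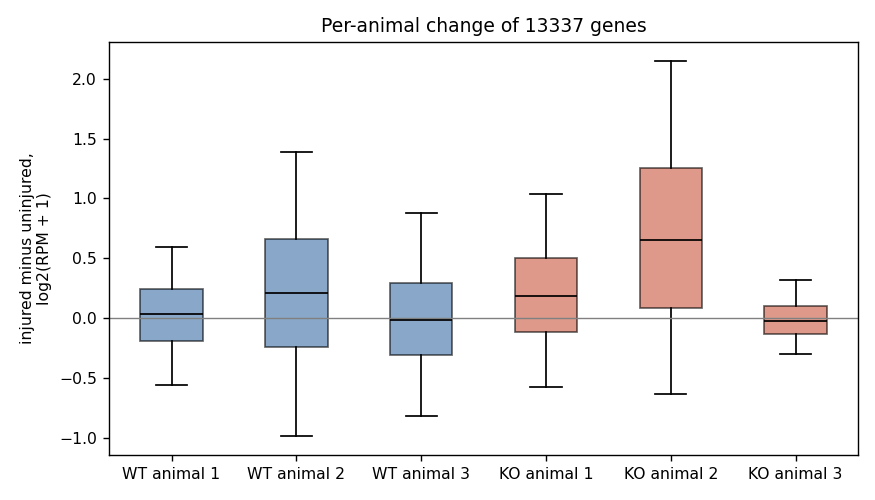
Per-animal change, injured minus uninjured log2(RPM + 1), of the 13337 genes tested. Boxes span the quartiles with the median as a line, and whiskers run from the 5th to the 95th percentile. The box of KO animal 2 lies mostly above 0 (median 0.65), and that of KO animal 3 is the narrowest (0.270% of genes beyond 1 log2 unit).

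WT animal 2 also moved against the other WT animals on a set of loci chosen after their values were seen. Gm42418, a locus that overlaps ribosomal RNA sequence, was at 30.1, 912 and 28.8 RPM in the uninjured and 462, 17.0 and 750 RPM in the injured WT libraries of animals 1, 2 and 3. Its uninjured value in animal 2 was thus above the injured values of animals 1 and 3, and its injured value was under their uninjured ones. Lars2, the mitochondrial leucyl-tRNA synthetase gene, had a similar layout, with 54.2, 1766 and 73.0 RPM uninjured and 721, 54.8 and 1317 RPM injured. Gm15564, Gm23935 and Mir6236 did likewise, with changes of -4.91 to -5.88 in WT animal 2 against 3.05 to 5.67 in WT animals 1 and 3. In the KO, Gm42418 was at 71.8, 106 and 40.7 RPM uninjured and 47.0, 345 and 49.5 RPM injured, so animal 2 was the highest in both states. At these loci WT animal 2 thus changed in the opposite direction to WT animals 1 and 3. Whether its uninjured and injured libraries were exchanged was not tested, and the labels were kept. With exchanged labels every change of WT animal 2 would have the opposite sign, so each difference below that leans on that animal is in doubt to that extent. Values without WT animal 2, without KO animal 2 or without both are given below where they moved a result. The fit without both was added after the data were seen.

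**Figure D2:**
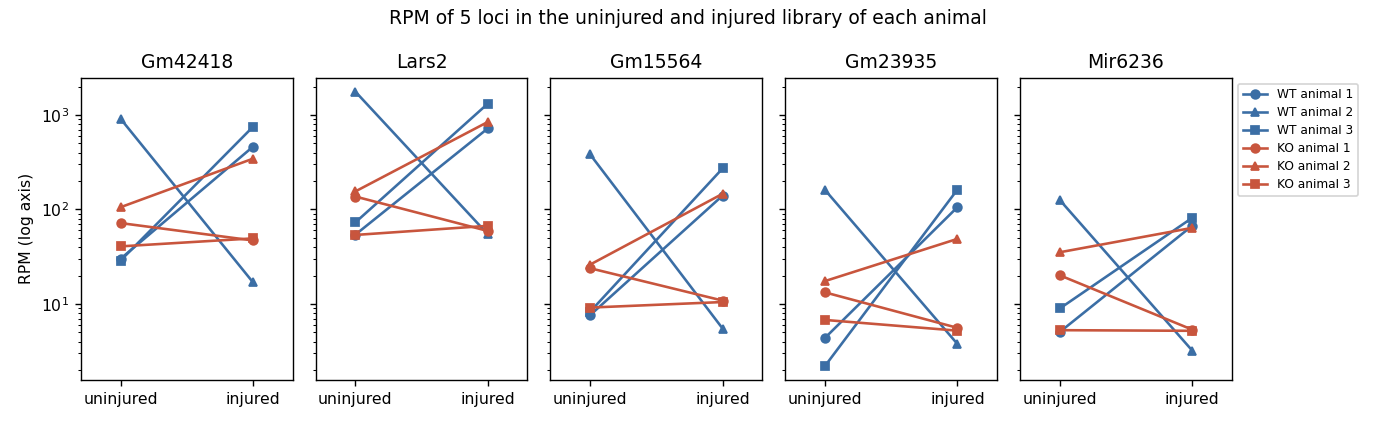
RPM on a log axis of 5 loci in the uninjured and injured library of each animal (lines join the libraries of 1 animal, blue WT, red KO). WT animals 1 and 3 run upward and WT animal 2 downward at all 5, as with Gm42418 at 30.1 to 462, 28.8 to 750 and 912 to 17.0 RPM.

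The changes of animals of 1 genotype were weakly or oppositely related across genes. Over the 9173 genes with a mean of at least 5 RPM, the Pearson correlation of per-animal changes was -0.01 between WT animals 1 and 2, 0.33 between 1 and 3 and -0.35 between 2 and 3. In the KO it was 0.17 between animals 1 and 2, -0.37 between 1 and 3 and 0.07 between 2 and 3. The highest value of any pair, 0.54, joined WT animal 2 and KO animal 1. No library enters more than 1 change, so no 2 changes have a library in common. What the changes of WT animal 2 and KO animal 1 share was not tested.

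Of the 13337 genes that reached 1 RPM in 3 or more libraries, 0% (0 genes) passed an adjusted p of 0.05 for the difference between genotypes (limma on the 6 changes, Benjamini-Hochberg adjusted, lowest value 0.965). edgeR and DESeq2 on the whole reads recovered from the RPM values also called 0 genes, with 260 and 393 at an unadjusted p under 0.05. The unadjusted p was under 0.05 for 280 genes, of which 235 (1.76% of those tested) had the higher change in the KO and 45 (0.337%) the lower. The median difference over all genes was 0.20 log2 units and 68.1% of differences were above 0. With TMM scaling the median was 0.02, and 195 of 338 genes (57.7%) had the higher change in the KO in place of 235 of 280 (83.9%), so directions below are read against the median of 0.20. Every KO change lay above every WT change for 621 genes (4.66%) and below for 351 (2.63%). KO animal 2 gave the highest of the 6 changes for 192 of the 280 genes (68.6%) and for 50.1% of all genes. The 280 became 158 without WT animal 1, 540 without WT animal 2, 102 without KO animal 2 and 1037 without KO animal 3. Without both animals 2 they became 675, of which 5 passed the adjusted threshold: the loci Gm42418, Lars2, Gm15564, Gm23935 and Mir6236 described above.

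No gene passed in either genotype alone. limma called 0 genes in the WT (lowest Benjamini-Hochberg adjusted p 1.0), where 319 genes had an unadjusted p under 0.05 and 205 of these were higher after injury, and the 319 became 644 without KO animal 2. It called 0 in the KO (lowest adjusted p 0.565), where 889 genes had an unadjusted p under 0.05 and 857 of these were higher after injury. The 889 became 19 without KO animal 2, 498 without WT animal 1 and 2520 without KO animal 3. Without WT animal 2, Gm42418 and Gm23935 passed in the WT, and no other gene did.

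Transcripts of the cells that enter injured muscle had overlapping ranges in both states of the WT. The summed level of 19 macrophage genes was 227 to 424 RPM in the uninjured and 266 to 361 RPM in the injured WT libraries, and 161 to 248 RPM and 271 to 294 RPM in the KO, where the ranges did not overlap. Those of 11 neutrophil genes summed to 2.66 to 14.5 RPM uninjured and 3.74 to 9.22 RPM injured in the WT, and 3.94 to 12.9 and 4.26 to 6.86 RPM in the KO, and 7 of the 11 were under 1 RPM in every library. Fast fibre genes, which mark the labelled tissue, were abundant in every library, with 212800 to 317700 RPM over 15 genes. In bulk RNA, fewer cells of a type and less RNA per cell cannot be told apart.

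Slow fibre genes had higher changes in the KO than in the WT. All 12 had the higher change in the KO, 7 of them at an unadjusted p under 0.05 against 1.76% of all genes, and in 4 of the 12 the KO and WT animals did not overlap, against 4.66% of all genes. Their median difference was 1.01 log2 units, with medians of -0.50, -1.47 and -0.16 in WT animals 1, 2 and 3 and 0.69, 0.05 and -0.02 in the KO animals. None passed the adjusted threshold. Without WT animal 2 the median was 0.66, with 10 of 12 higher in the KO, and without KO animal 2 it was 1.19, with 11 of 12. Without both it was 0.76, with 11 of 12 higher, beside 0.07 for all genes. There 6 of the 12 had an unadjusted p under 0.05, against 514 of 13337 genes with the higher change in the KO. With TMM scaling all 12 were higher in the KO and the median was 0.79. In that fit 2 of the 12 had an unadjusted p under 0.05, against 195 of 13337 genes.

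Myoz2 encodes calsarcin-1, a Z-disc protein of slow fibres that binds calcineurin. It was at 50.6, 44.1 and 78.9 RPM in the uninjured and 27.7, 25.6 and 32.0 RPM in the injured WT libraries. In the KO it was at 104, 27.1 and 155 RPM uninjured and 205, 33.5 and 150 RPM injured. All 3 WT animals were lower after injury, and the KO animals ranged from -0.04 to 0.98. The difference was 1.37 ± 0.33 (SE, n = 3 against 3; limma, unadjusted p = 0.00187, adjusted p = 0.965), and it was 1.47 without WT animal 2, 1.43 without KO animal 2 and 1.53 without both.

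Slow troponins, myosin light chains and tropomyosin also had higher changes in the KO. The groups did not overlap for Tnnt1, Myl2 and Tpm3 but did for Myl3, Tnni1 and Tnnc1. Tnnt1, the slow troponin T, was at 203, 218 and 264 RPM uninjured and 130, 50.4 and 215 RPM injured in the WT. It was at 683, 354 and 567 RPM uninjured and 938, 355 and 628 RPM injured in the KO. The KO libraries were above the WT libraries in both states, and the difference of the changes was 1.21 ± 0.42 (SE; limma, unadjusted p = 0.0156). It was 0.67 without WT animal 2, in which Tnnt1 was 2.09 log2 units lower after injury. Myl2, the slow regulatory light chain, was at 321, 310 and 471 RPM uninjured and 235, 85.0 and 359 RPM injured in the WT, and at 964, 450 and 612 RPM and then 1210 (animal 1), 480 and 698 RPM in the KO. It was lower after injury in 3 of 3 WT animals and higher in 3 of 3 KO animals, a split that 1.5% of all genes showed, with a difference of 1.10 that was 0.62 without WT animal 2. Tpm3, the slow tropomyosin, differed by 0.90 (0.72 without WT animal 2), Myl3 by 1.30 (0.71) and Tnni1, the slow troponin I, by 1.05 (0.64).

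Atp2a2 encodes SERCA2, the slow fibre calcium pump, and had a difference of 1.44 ± 0.48 (SE; limma, unadjusted p = 0.0125). Its WT values were 134, 126 and 201 RPM uninjured and 102, 51.6 and 212 RPM injured, and its KO values were 209, 64.7 and 486 RPM and then 630, 164 and 431 RPM. KO animals 1 and 2 were higher after injury by 1.58 and 1.33 log2 units and animal 3 was not (-0.17), so WT and KO overlapped, and the difference was 0.86 without both animals 2. Myh7, the slow myosin heavy chain, went from 134, 119 and 102 RPM to 73.1, 34.6 and 109 RPM in the WT and from 496, 249 and 661 RPM to 913, 209 and 469 RPM in the KO. Its difference of 0.88, which was 0.43 without WT animal 2, did not reach an unadjusted p of 0.05 (0.094), nor did those of Tnnc1, Casq2, Actn2 and Myh7b.

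**Figure D3:**
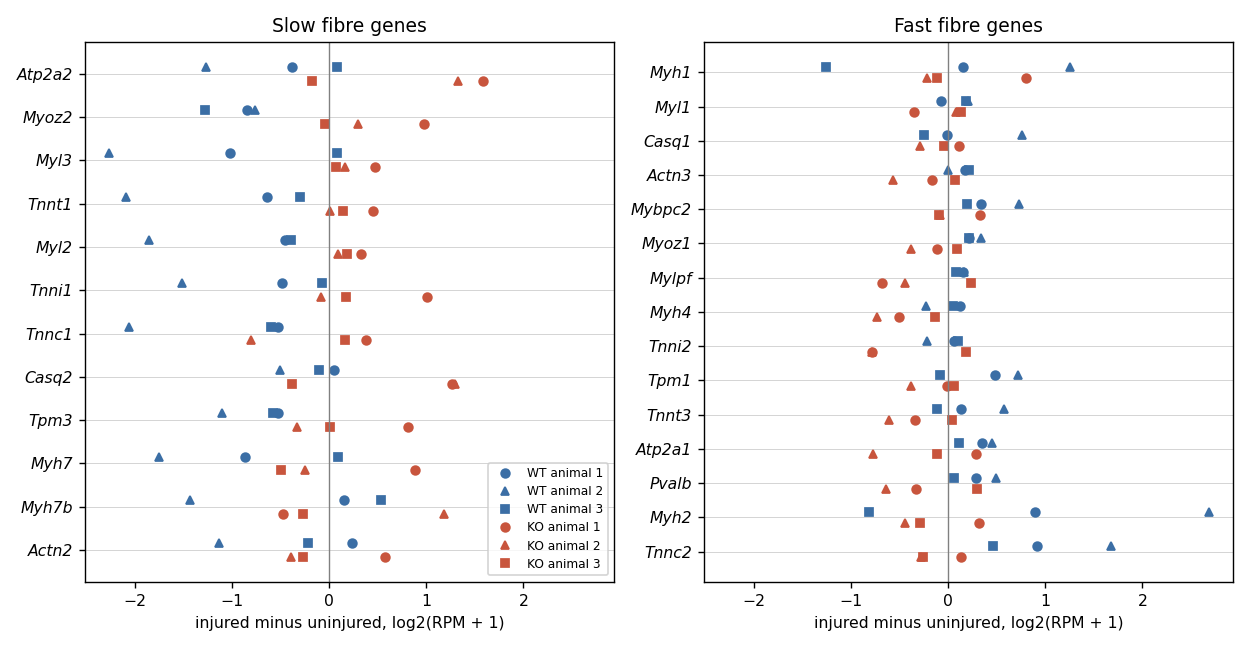
Change after injury, log2(RPM + 1), of 12 slow and 15 fast fibre genes in each animal (blue WT, red KO, symbols for animals 1 to 3), ordered by the difference between genotypes. Slow fibre points of the WT lie mostly left of the KO points (median difference 1.01), with WT animal 2 farthest left for most genes, and fast fibre points mostly the reverse (median difference -0.44).

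Fast fibre genes lay on the other side. Of 15, 1 (Myh1, 0.10) had the higher change in the KO, the median difference was -0.44, and 1 had an unadjusted p under 0.05, against 0.337% of all genes with the lower change in the KO. In 2 of the 15, Tnnc2 and Myoz1, the KO animals lay below the WT animals, against 2.63% of all genes. Without both animals 2 the median was -0.17. Tnnc2, the fast troponin C, was at 4.47, 5.32 and 7.61 RPM uninjured and 9.30, 19.1 and 10.9 RPM injured in the WT, and at 19.8, 4.57 and 28.5 RPM and then 21.9, 3.60 and 23.6 RPM in the KO. It was thus higher after injury in 3 of 3 WT animals, with a difference of -1.15 ± 0.43 (SE; limma, unadjusted p = 0.0212) that was -0.75 without both animals 2. Its level was low beside that of other fast genes, such as Myoz1 at 2377 to 3612 RPM, and whether reads were lost to an overlapping gene was not tested. Myh4, the myosin of the fastest fibres, was at 40979 to 60748 RPM in the WT and 53719 to 93275 RPM in the KO over both states, with a difference of -0.44.

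Myh8, the perinatal myosin heavy chain, had a difference of the same sign as the fast genes. It was at 965, 646 and 1019 RPM uninjured and 1509, 1762 and 1038 RPM injured in the WT, and at 2322, 1246 and 1969 RPM and then 2173, 778 and 1918 RPM in the KO. All 3 WT animals were higher and all 3 KO animals lower after injury, a split found in 0.735% of all genes, and the difference was -0.98 ± 0.38 (SE; limma, unadjusted p = 0.0252). The change of WT animal 3 was 0.03. Without both animals 2 the difference was -0.40. Of the 13 regenerating fibre genes tested, 5 had the higher change in the KO. Myh8 alone had an unadjusted p under 0.05, against 0.337% of all genes with the lower change in the KO. The embryonic myosin Myh3 differed by 0.64 (0.14 without KO animal 2), and the list's median of -0.19 became 0.03 without both animals 2.

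Promoters are shown for 4 of these contractile genes, 2 slow (Myoz2, Tnnt1) and 2 with the opposite sign (Tnnc2, Myh8), each the single start of its gene in the RefSeq table of GRCm38.p6 and each with KO and WT animals that did not overlap. Each sequence is the 250 bases before the start, 5′ to 3′ on the gene's strand, with matches to the E-box CANNTG, the class of site that basic helix-loop-helix factors bind, in capitals.
Myoz2 (chr3:123034988-123035237, minus strand): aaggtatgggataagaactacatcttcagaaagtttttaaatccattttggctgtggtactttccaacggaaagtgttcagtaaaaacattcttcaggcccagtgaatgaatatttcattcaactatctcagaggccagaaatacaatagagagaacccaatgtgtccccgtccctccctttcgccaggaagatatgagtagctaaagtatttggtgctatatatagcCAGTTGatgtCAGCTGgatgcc
Tnnt1 (chr7:4515976-4516225, minus strand): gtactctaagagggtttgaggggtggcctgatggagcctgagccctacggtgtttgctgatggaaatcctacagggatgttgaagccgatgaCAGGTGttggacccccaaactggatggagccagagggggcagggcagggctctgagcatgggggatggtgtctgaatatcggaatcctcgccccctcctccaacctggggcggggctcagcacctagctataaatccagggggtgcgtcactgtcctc
Tnnc2 (chr2:164779735-164779984, minus strand): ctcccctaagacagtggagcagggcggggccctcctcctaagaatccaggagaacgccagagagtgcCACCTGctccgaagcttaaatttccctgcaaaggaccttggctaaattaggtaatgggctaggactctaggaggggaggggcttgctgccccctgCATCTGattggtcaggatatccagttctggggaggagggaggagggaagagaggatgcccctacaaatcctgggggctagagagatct
Myh8 (chr11:67276874-67277123, plus strand): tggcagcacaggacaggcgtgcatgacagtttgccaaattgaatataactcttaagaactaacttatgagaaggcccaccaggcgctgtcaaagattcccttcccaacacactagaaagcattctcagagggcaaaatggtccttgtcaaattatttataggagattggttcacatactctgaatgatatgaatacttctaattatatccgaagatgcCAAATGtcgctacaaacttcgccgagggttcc
The motif reads the same on both strands. Myoz2 and Tnnc2 each held 2 matches and Tnnt1 and Myh8 1 each. A match was present in 66.2% of the 32851 promoter windows of this length in the table, in 15 of 15 windows of the 11 slow fibre genes found there and in 9 of 12 windows of the 11 fast fibre genes found, so genes with differences of either sign held the motif.

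The myogenic regulators and satellite cell markers had median differences of 0.07 and -0.04, below the 0.20 of all genes, and these signs flipped to -0.10 with TMM scaling and to 0.07 with scaling outside mitochondrial genes. Of 14 regulators, 9 had the higher change in the KO and 0 had an unadjusted p under 0.05, against 1.76% of all genes. Myog, the factor that drives terminal differentiation, was at 4.92, 4.26 and 2.83 RPM uninjured and 9.53, 8.12 and 4.82 RPM injured in the WT, and at 3.01, 7.08 and 6.57 RPM and then 4.55, 2.05 and 6.84 RPM in the KO. All 3 WT changes (0.60 to 0.83) were above all 3 KO changes (-1.41 to 0.47), with a difference of -1.04 ± 0.53 (SE; limma, unadjusted p = 0.0789) that was -0.48 without KO animal 2. Myod1 differed by -0.15 and Myf5, at 0 to 3.69 RPM, by 0.43 (1.0 without WT animal 2). Pax7, the defining marker of satellite cells, was at 0.989 to 4.65 RPM over the 12 libraries and differed by 0.07 ± 0.47 (SE; limma, unadjusted p = 0.878). Its sign reversed with edgeR, DESeq2, TMM, upper quartile and median scaling. Of 14 satellite cell markers, 6 had the higher change in the KO and 0 had an unadjusted p under 0.05. In Cxcr4 and Chrdl2, 2 of the 14, the KO animals lay above the WT animals, against 4.66% of all genes. Cxcr4 differed by 1.0 and Chrdl2 by 0.93, and these were 0.58 and 0.44 without KO animal 2 and 0.38 and 0.27 without both animals 2.

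Macrophage genes and chemokines had higher changes in the KO. Of 19 macrophage genes, 17 had the higher change in the KO, with a median difference of 0.45 against 0.20, and 2 had an unadjusted p under 0.05, against 1.76% of all genes. Without KO animal 2 the median was 0.19 with 13 of 19 higher, beside 0.004 and 50.5% for all genes in that fit. Without WT animal 2 it was 0.57 with 19 of 19, beside 0.26 and 72%. With TMM scaling it was 0.28 with 13 of 19, beside 0.02 and 51.7%. After centring on the median of all genes 13 of 19 were higher, beside 50.7% of all genes. Ctss, a lysosomal protease of antigen-presenting cells, was at 10.0, 7.45 and 13.5 RPM uninjured and 8.85, 7.49 and 11 RPM injured in the WT. In the KO it was at 2.85, 2.68 and 4.77 RPM uninjured and 7.87, 4.87 and 7.65 RPM injured. The KO libraries were below the WT libraries before injury and were higher after it in 3 of 3 animals, with a difference of 0.96 ± 0.41 (SE; limma, unadjusted p = 0.0388) that was 1.11 without both animals 2. Gpnmb, a lysosomal glycoprotein of phagocytes, differed by 1.71, with 11.3 RPM in injured KO animal 1 and 0.0787 RPM, a single read, in uninjured KO animal 2, and by 1.14 without both animals 2. Mrc1 and Csf1r, further markers of tissue macrophages, differed by 0.04 and -0.05.

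Among 12 chemokines, 11 had the higher change in the KO, beside 68.1% of all genes, with a median difference of 0.37 against 0.20. Ccl6 and Ccl8, attractants of monocytes and macrophages, had an unadjusted p under 0.05, against 1.76% of all genes. Without KO animal 2 the median was 0.10 with 9 of 12 higher, beside 0.004 and 50.5% for all genes in that fit. There 0 of the 12 had an unadjusted p under 0.05, against 68 of 13337 genes with the higher change in the KO. Ccl6 was at 16.8, 14.4 and 12 RPM uninjured and 9.30, 6.29 and 11.5 RPM injured in the WT, and at 6.09, 3.07 and 6.22 RPM and then 6.96, 7.47 and 7.25 RPM in the KO. It was lower after injury in 3 of 3 WT animals and higher in 3 of 3 KO animals, against 1.5% of all genes with that split. Its difference of 1.11 was 0.60 without both animals 2. Ccl8 differed by 1.35 (0.57 without both animals 2) and was at 0 to 1.66 RPM in the KO libraries.

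Schwann cell genes, which encode the myelin of the nerves within muscle, had the largest median difference of the lists, and it was smaller without both animals 2. Of 10 genes, 9 had the higher change in the KO, 3 (Pmp22 among them) had an unadjusted p under 0.05, against 1.76% of all genes, and in 0 of the 10 did the groups separate, against 4.66%. Pmp22, a membrane protein of peripheral myelin, was at 172, 228 and 281 RPM uninjured and 174, 70.9 and 183 RPM injured in the WT, and at 187, 141 and 87.6 RPM and then 117, 636 and 157 RPM in the KO. The injured library of KO animal 2 was the highest and that of WT animal 2 the lowest of the 12, and KO animal 1 was lower after injury. The list's summed level was 563, 606 and 1001 RPM uninjured and 524, 173 and 555 RPM injured in the WT, and 704, 548 and 274 RPM and then 355, 1923 and 522 RPM in the KO. The median difference of 1.28 was 0.79 without WT animal 2 and 0.65 without KO animal 2, each with 0 genes at an unadjusted p under 0.05, and 0.25 without both, with 7 of 10 higher in the KO and 0 at an unadjusted p under 0.05. How much nerve each sample held was not tested.

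Globin and mitochondrially encoded transcripts also had higher changes in the KO. Hbb-bs, an adult beta globin, was at 264, 173 and 202 RPM uninjured and 198, 87.9 and 179 RPM injured in the WT, and at 97.5, 176 and 91.1 RPM and then 90.4, 294 and 151 RPM in the KO. All 3 WT animals were lower after injury and all 3 KO changes lay above the WT changes, with a difference of 0.97 ± 0.33 (SE; limma, unadjusted p = 0.0139) that was 0.60 without both animals 2. With TMM scaling it was 0.75 (limma, unadjusted p = 0.0642). All 5 globin and red cell genes tested had the higher change in the KO, beside 68.1% of all genes. Their median was 0.64, and 0.60 without both animals 2. Of 12 mitochondrially encoded protein genes, 11 had the higher change in the KO, again beside 68.1%. Their median was 0.88 and 0 had an unadjusted p under 0.05, against 1.76% of all genes. The median was 0.54 without WT animal 2, 0.58 without KO animal 2 and 0.25 without both, and mt-Nd2, a subunit of complex I, went from 0.91 to 0.28 without both. Mitochondrial genes took 18.1%, 22.3% and 13.8% of reads uninjured and 12.5%, 8.35% and 14.8% injured in the WT, and 6.76%, 15.3% and 3.63% and then 4.95%, 23.2% and 4.30% in the KO. The share thus dropped most in WT animal 2, which also had the lowest medians of slow fibre (-1.47) and Schwann cell genes (-1.68), and increased most in KO animal 2, which had the highest median of Schwann cell genes (1.85). The part of these shares in the other results was not tested.

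The exercise-linked myokines, signals that muscle releases to other cells, had medians below 0 in the WT animals and above 0 in the KO animals. All 17 tested of the 22 listed had the higher change in the KO, beside 68.1% of all genes, with medians of -0.10, -0.09 and -0.26 in the WT animals and 0.22, 0.77 and 0.10 in the KO animals. The median difference was 0.40 and 0 of the 17 had an unadjusted p under 0.05, against 1.76% of all genes. Il15, a cytokine that supports lymphocytes, was at 10.1, 7.45 and 9.32 RPM uninjured and 9.15, 5.02 and 6.58 RPM injured in the WT, and at 4.18, 7.32 and 4.02 RPM and then 4.92, 8.63 and 5.69 RPM in the KO. It was lower after injury in 3 of 3 WT animals and higher in 3 of 3 KO animals, with a difference of 0.63 ± 0.40 (SE; limma, unadjusted p = 0.144). Erfe, the muscle and erythroid hormone erythroferrone, differed by 1.07, Dcn, a matrix proteoglycan, by 0.89, and Mstn, the growth inhibitor myostatin, by 0.76. These leaned on single animals: Erfe was 0.49 without KO animal 2 and 0.18 without both animals 2, Dcn was 1.54 without WT animal 2 and 0.48 without KO animal 2, and Mstn was 1.54 without WT animal 2. With TMM scaling 15 of the 17 were higher in the KO, beside 51.7% of all genes. Without KO animal 2 it was 14 of 17 with a median of 0.23, beside 50.5% and 0.004 for all genes. Without both animals 2 it was 12 of 17 with a median of 0.22, beside 56.7% and 0.07.

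**Figure D4:**
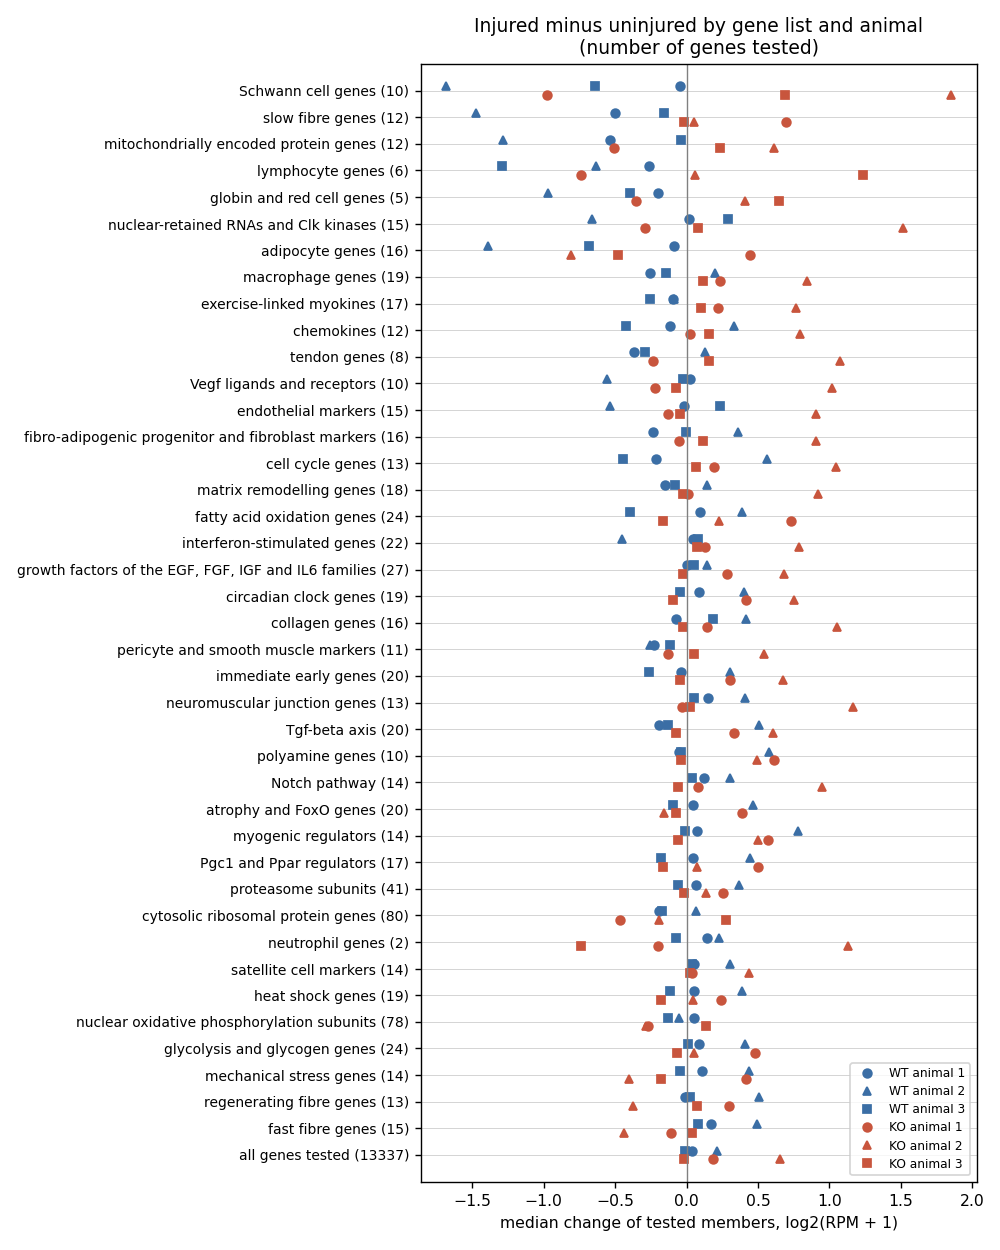
Median change after injury, log2(RPM + 1), of each gene list in each animal (blue WT, red KO, symbols for animals 1 to 3), ordered by the difference between genotypes, with all genes at the bottom. The lists at the top have WT points to the left of most KO points, as in the slow fibre genes (-1.47 to -0.16 against -0.02 to 0.69), and KO animal 2 lies farthest right in most lists, as it does for all genes (0.65).

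Cd36, Fabp4 and Lpl, genes of lipid uptake, had higher changes in the KO. Cd36, the fatty acid transporter of muscle and endothelium, was at 166, 148 and 231 RPM uninjured and 146, 102 and 198 RPM injured in the WT, and at 176, 87.9 and 297 RPM and then 358, 239 and 269 RPM in the KO. KO animals 1 and 2 were higher after injury by 1.02 and 1.43 log2 units and animal 3 was at -0.14, all above the WT changes of -0.54 to -0.18. The difference was 1.09 ± 0.38 (SE; limma, unadjusted p = 0.0164) and was 0.64 without both animals 2. Of 24 fatty acid oxidation genes, 19 (79.2%) had the higher change in the KO, beside 68.1% of all genes. An unadjusted p under 0.05 was found for 3 of the 24, against 1.76% of all genes. These were Cd36, Fabp4, a lipid carrier of fat and endothelium, and Lpl, the lipase that frees fatty acids from lipoproteins, and both Cd36 and Fabp4 also stand in the list of endothelial markers. Fabp4 and Lpl also stand in that of adipocyte genes, of which 12 of 16 (75.0%) had the higher change in the KO. The adipocyte median difference was 0.48, with medians of -0.09, -1.39 and -0.69 in the WT animals and 0.45, -0.81 and -0.48 in the KO animals. The adipocyte median was 0.10 without WT animal 2. The summed level of the 16 adipocyte genes was 4266 to 9298 RPM uninjured and 3657 to 6189 RPM injured in the WT, and 3842 to 8926 RPM and then 3215 to 12970 RPM in the KO, and its part in the lipid result was not tested. Fabp4 differed by 0.32 and Lpl by 0.41 without both animals 2. With TMM scaling Cd36 differed by 0.87, Fabp4 by 0.49 and Lpl by 0.44. Of these 3 genes, Cd36 alone kept an unadjusted p under 0.05 with TMM scaling (limma, 0.0241) and with edgeR (0.0346). The median difference of the fatty acid oxidation genes was 0.32 against 0.20 for all genes, and 0.12 when centred on the median of all genes. That of 78 nuclear subunits of oxidative phosphorylation was -0.08, with 27 of 78 higher in the KO, and 0.06 with scaling outside mitochondrial genes. Ldhb, the lactate dehydrogenase subunit of oxidative tissue, differed by 0.88. It was the 1 gene with an unadjusted p under 0.05 among 24 glycolysis and glycogen genes, against 1.76% of all genes. Of the 24, 9 had the higher change in the KO, and Gapdh differed by -0.74 (-0.33 without WT animal 2).

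Among all genes, 95 with a mean of at least 5 RPM, an unadjusted p under 0.05 and groups that did not overlap had the higher change in the KO, and 26 the lower. The largest differences belonged to Tceal8 (1.75), Spata6 (1.74), Wipf1 (1.73), Gpm6b (1.70) and Sh3bgrl (1.62). Sh3bgrl, a small adaptor-like protein, was at 39.6, 20.2 and 25.0 RPM uninjured and 21.2, 12.2 and 18.0 RPM injured in the WT, and at 11.5, 6.69 and 15.6 RPM and then 22.6, 24.8 and 18.0 RPM in the KO. It was lower after injury in 3 of 3 WT animals and higher in 3 of 3 KO animals, and the uninjured KO libraries were all below the uninjured WT libraries. Its difference of 1.62 ± 0.43 (SE; limma, unadjusted p = 0.00319) was 1.62 without WT animal 2, 1.23 without KO animal 2 and 1.22 without both. Wipf1, a partner of the actin regulator WASP, depended more on KO animal 2, where it was at 1.73 RPM uninjured and 23.1 RPM injured, and its difference was 0.55 without both animals 2.

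Gpm6b, a membrane proteolipid, was at 15.3, 9.57 and 20.7 RPM uninjured and 8.18, 4.38 and 9.49 RPM injured in the WT, so it was lower after injury by 0.83 to 1.05 log2 units in each WT animal. In the KO it was at 6.92, 4.49 and 3.88 RPM uninjured and 5.33, 20.6 and 6.34 RPM injured. Its difference was 1.07 without both animals 2. Reln, the secreted glycoprotein reelin, differed by 1.54 (0.85 without both animals 2), and Rap1b, a small GTPase, by 1.50 (0.65). The other genes on this side, Zfp948, Prkra, Fam172a, Zfp942 and Itgb3bp, differed by 1.49 to 1.58. With both animals 2 left out they were at 0.49, 0.93, 1.16, 0.90 and 0.58 in this order, and Tceal8 and Spata6 were at 1.57 and 0.99.

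On the lower side, Tnnc2 and Myh8, given above, stood with Podxl2 and Zswim9. Podxl2, a sialomucin related to podocalyxin, was at 9.98, 7.45 and 8.93 RPM uninjured and 15.0, 17.7 and 12.3 RPM injured in the WT, and at 24.6, 19.2 and 33.8 RPM and then 26.3, 9.74 and 29.3 RPM in the KO. It was higher after injury in 3 of 3 WT animals, and its difference of -1.04 was -0.54 without both animals 2. Zswim9 differed by -0.98 (-0.46 without both). Dapk3, a death-associated protein kinase, differed by -0.95, Mrps11, a mitochondrial ribosomal protein, by -0.85, and Cd82, a tetraspanin of satellite cells among other cells, by -0.79. Ino80b, Ccdc85b, Ubtd1, Ttyh2 and Sept9 lay between -0.95 and -0.83. Without both animals 2, Ino80b was at -0.59, Ubtd1 at -0.55 and Sept9 at -0.58, while Ccdc85b, Dapk3, Mrps11, Ttyh2 and Cd82 lay between -0.83 and -0.75.

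**Figure D5:**
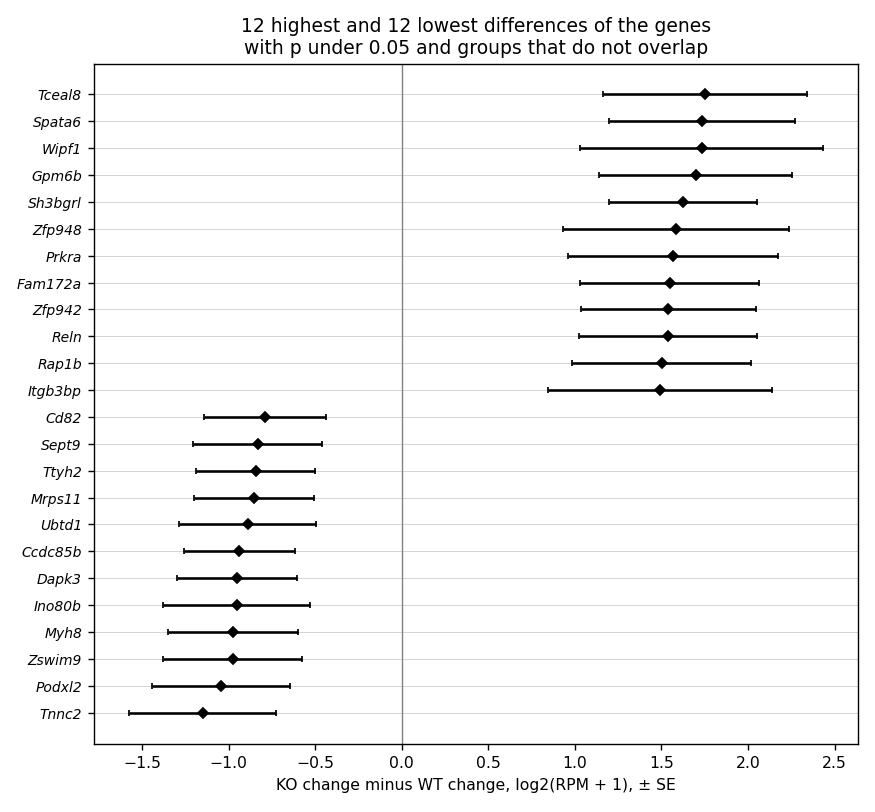
Difference between genotypes (KO change minus WT change, log2(RPM + 1), with its SE) for the 12 highest and 12 lowest genes among those with an unadjusted p under 0.05, a mean of at least 5 RPM and groups that did not overlap, chosen by these values. The highest is Tceal8 at 1.75 and the lowest Tnnc2 at -1.15, and none passed the adjusted threshold.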

How the data were processed

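The labels tie 12 RNA-seq libraries (TruSeq RNA v2, total RNA, per the labels' protocols) to 4 groups. The deposited tables give RPM per gene, made by the authors. Per the submitters' processing notes, which assign no roles, the tools of the series include HISAT2 2.1.0, SAMtools, featureCounts and DESeq2, with the builds mm10 and GRCm38.p5. All low RPM values tested (100%) were whole multiples of 1 read within 0.1 read, so whole reads were recovered for the count tests and the read totals. Both tables hold 49585 genes and were joined by gene identifier. A gene was tested with at least 1 RPM in at least 3 libraries. The 6 per-animal changes of log2(RPM + 1) were fitted with limma 3.58.1 in R 4.3.3 (lmFit, eBayes with a trend on mean level), two-sided, adjusted by Benjamini-Hochberg, after a run on simulated data. The alternatives were edgeR 4.0.16, DESeq2 1.42.0, other scalings, filters and pseudocounts, fits without each animal, and fits without an animal term.

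The members, gene lists and rules were chosen with earlier results of these data known. Lists are described by counts and medians only. Named genes are Myf6, Myf5, Myod1, Myog, Pax7 and Myh6, any gene past the adjusted threshold, the 12 highest and 12 lowest differences among genes with an unadjusted p under 0.05, a mean of at least 5 RPM and groups that did not overlap (without unnamed models and pseudogenes), and of each list the 3 genes with the smallest p. Other members are named for their role and the 5 loci of WT animal 2 after their values were seen.

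The pairing of the uninjured and injured library of an animal comes from the number in the descriptions. The correlation of their deviations from the group means was 0.278, -0.231 and 0.016 in WT animals 1, 2 and 3 and 0.024, 0.504 and 0.628 in the KO animals. Promoter sequences come from RefSeq (GRCm38.p6). The ChIP-seq peak list was not used here. Single values of some named genes are not reported here.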

Additional observations from a re-analysis of the deposited data

Results flagged for a closer look

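The median change of the exercise-linked myokines was below 0 in 3 of 3 WT animals and above 0 in 3 of 3 KO animals, with a median difference of 0.40 over 17 genes. This opposite movement was not tested, the lists were chosen with earlier results known, and the median of all genes lay in the same direction at 0.20.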

How the results depend on the processing

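The count of genes past the adjusted threshold for the difference was 0 under every setting except without both animals 2, where it was 5. The count at an unadjusted p was 647 with no filter, 173 with a mean of at least 5 RPM, 675 without both animals 2, and 102 to 1037 when 1 animal was left out, against 280. With the replicate block, the title number that joins a WT and a KO animal, 0 genes passed and 340 had an unadjusted p under 0.05. After the mean change of each genotype was taken out, the changes of same-numbered WT and KO animals correlated at -0.208, -0.233 and 0.094. These values gave no sign that the number pairs them. In a fit of the 12 libraries as 4 groups, without the pairing of the libraries of an animal, 0 passed. There 208 had an unadjusted p under 0.05. Neither of these fits changed a call. For injury in the WT, 0 to 2 genes passed when 1 animal was left out and 9 without both animals 2. The fast fibre median was -0.174 without both animals 2.

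Of 2660 estimates of named genes under 20 alternatives, 2627 kept their sign. Part of these could not do otherwise. Fits with the replicate block, without the pairing, without the trend or with other filters used the same values and left each estimate unchanged. None of the 33 that reversed reached an unadjusted p of 0.05. Without both animals 2 they were Myh6 (0.298), Myf6 (0.726), Chrnb1 (-0.135), Rbm39 (-0.037), Oaz2 (0.0055), Osmr (-0.174), Sat1 (-0.039), S100a9 (-0.172), Pax7 (-0.088), Cspg4 (-0.222), Chad (-0.146) and Vegfd (-0.035). When 1 animal was left out the estimates ran from -0.554 to 0.186 for Myh6, -0.91 to 0.51 for Myf6, -0.0335 to 0.612 for Chrnb1, -0.0356 to 0.874 for Sat1, -0.067 to 0.978 for Col6a3, -1.04 to 0.566 for Mmp9, -0.0896 to 0.373 for S100a9, -0.163 to 0.314 for Pax7, -0.347 to 0.00151 for Myod1, -0.0441 to 0.554 for Cspg4, -0.0471 to 1 for Myf5 and -0.0934 to 0.881 for Chad. With a pseudocount of 0.1 they were Mmp9 (0.3) and Myf5 (-0.177). Under other scalings and tools they were Pax7 (-0.108 with edgeR, -0.113 with DESeq2, -0.078 with TMM, -0.065 with the upper quartile and -0.121 when centred on the median) and S100a9 (-0.043 when centred). The cause was not tested. Of 796 list medians, 774 moved by no more than the spread between animals. That spread included both animals 2, so it was wide where they stood apart. For Schwann cell genes the SD between animals was 0.83 in the WT and 1.42 in the KO. The count therefore says little about how lists depend on these animals. Medians of the fits with the replicate block, without the pairing and without the trend could not move at all.

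With 3 animals a genotype the median SE of a difference was 0.449 log2 units, and an unadjusted p over 0.05 does not show that the genotypes responded alike. In the shallowest library, 3 reads are worth 1.60 RPM, so low genes there are poorly measured.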

Other observations

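Nuclear-retained RNAs and Clk kinases, listed together with genes of splicing factors and other RNA-binding proteins, had a median difference of 0.57, with 13 of 15 higher in the KO. Their medians were 1.52 in KO animal 2 and -0.66 in WT animal 2, and without both animals 2 the list's median was -0.25, with 3 of 15 higher in the KO. Srsf3, a splicing factor of this list, was lower after injury in 3 of 3 WT animals and higher in 3 of 3 KO animals, with a difference of 0.70. Over all genes the median difference was 0.20, with 68.1% higher in the KO. Endothelial markers had a median difference of 0.33, with 14 of 15 higher in the KO, and -0.33 with 5 of 15 without both animals 2. Collagen genes had 0.22, close to all genes, with 13 of 16 higher in the KO, and 0.02 when centred on the median of all genes. Their median was 0.01 with 9 of 16 without both animals 2, and -0.01 with edgeR.

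All 13 cell cycle genes tested had the higher change in the KO, beside 68.1% of all genes. Their median difference was 0.33 and 0 had an unadjusted p under 0.05, against 1.76% of all genes. When centred on the median of all genes 8 of 13 had the higher change in the KO, as was so without WT animal 3. The list's median was 0.68 without WT animal 2, 0.16 with 9 of 13 without KO animal 2, and 0.32 with 12 of 13 without both. Over all genes these fits gave 0.26, 0.004 with 50.5% higher, and 0.07 with 56.7% higher. Of 80 cytosolic ribosomal protein genes, 39 had the higher change in the KO, as did 22 of 41 proteasome subunits, with medians of -0.02 and 0.03 that flipped to 0.13 with scaling outside mitochondrial genes and to -0.19 with TMM scaling. In Nr1d2, a repressor of the circadian clock, WT animals were lower and KO animals higher after injury in 3 of 3 each, with a difference of 0.57 that was 0.38 without KO animal 2. Ppargc1b, a coactivator of mitochondrial genes, had a difference of 1.10 that was 0.56 without KO animal 2, with a change of 0.0058 in KO animal 3.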
